A study of Mus musculus with 6 samples.

Results

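The AP-1 transcription factor genes and their small Maf relatives were followed in mouse bone-marrow-derived macrophages exposed to fungal extracellular vesicles (EVs). The set comprised 10 genes chosen by symbol: Fos, Fosb, Fosl1, Fosl2, Jun, Junb, Jund, Maff, Mafg and Mafk. All 10 had counts among the 41972 entries of the gene table, and all 10 were among the 12740 genes that passed the filter on low counts. Per the labels, macrophages were grown for 6 days from marrow of male wild-type C57BL/6 mice aged 6 weeks, in medium with 20% fetal bovine serum and 30% medium conditioned by L-929 cells, a source of M-CSF. Groups of 2 biological replicates were then kept for 6 h with PBS, with EVs of the mould Aspergillus flavus labelled LD-F1, or with EVs labelled LD-F1_b, both EV preparations at 20 µg per well. No source used here explains the suffix b, so the 2 preparations are kept apart by name only. Nor is it said whether the 2 replicates came from separate animals, so the p-values measure only the spread between these libraries, which may be technical.

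AP-1 is a family of dimers built from basic leucine zipper (bZIP) proteins, in which Jun proteins pair with one another or with Fos proteins, while Fos proteins need a Jun partner to bind DNA. Stimulated macrophages are known to switch on several of these genes early, through MAP kinase and serum response factor signalling, and AP-1 then acts at cytokine and protease genes together with NF-kB. The small Maf proteins MafF, MafG and MafK have the bZIP region but no transactivation domain; as homodimers they repress, and with the partners NRF1, NRF2 or BACH1 they bind antioxidant response elements.

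All 10 are listed as protein-coding genes, and their spans are given as deposited, on C57BL/6NJ coordinates. The Fos genes are Fos on chromosome 12 (88741461 to 88744847, plus strand), Fosb on chromosome 7 (18160456 to 18167782, minus strand), Fosl1 on chromosome 19 (2470854 to 2480774, plus strand) and Fosl2 on chromosome 5 (32004578 to 32026626, plus strand). The Jun genes are Jun on chromosome 4 (98755429 to 98758617, minus strand), Junb on chromosome 8 (89205616 to 89207455, minus strand) and Jund on chromosome 8 (73659962 to 73662838, plus strand). The small Maf genes are Maff on chromosome 15 (82759020 to 82771623, plus strand), Mafg on chromosome 11 (128888981 to 128897422, minus strand) and Mafk on chromosome 5 (150155878 to 150167019, plus strand).

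The 6 libraries held 13722215 to 15277997 counts, of which 14057 to 21022 fell in the 10 genes. Levels are given as CPM, the count of a gene relative to the TMM-scaled library total, and, for comparison between genes, as CPM per kb of the deposited gene length. A gene was called, and is said to have risen or fallen, at an adjusted p under 0.05 in the quasi-likelihood test of edgeR over all genes tested. Each log2 fold change is given ± its standard error (SE), and every group has n = 2. Of 8 listed macrophage markers, 7 were matched in the table and all 7 had counts, summing to 2777 to 2789 CPM in PBS and 3123 to 3223 CPM in the EV libraries. Of the 5 that were tested, Cd14 rose (mean of 422 CPM in PBS, 988 with LD-F1 EVs and 778 with LD-F1_b EVs), while Adgre1, Cd68, Csf1r and Fcgr1 did not pass in either EV group. Itgam and Mertk had 7 and 28 counts over all libraries. Markers of other cells were near 0: neutrophil markers summed to at most 1.5 CPM with Ly6g, S100a9, Elane, Ngp and Retnlg at 0 counts, T and NK cell markers to at most 0.765 CPM with Cd3e, Cd3d, Nkg7 and Klrb1c at 0, and stromal markers to at most 0.326 CPM. B cell, erythroid, endothelial, and mast cell and basophil markers each summed to at most 2.17 CPM. The 5 dendritic cell markers summed to 1.83 to 2.68 CPM in PBS. The sums were 8.39 to 8.75 with LD-F1 EVs and 4.63 to 6.19 with LD-F1_b EVs. Siglech and Ccr7 were at 0, and Flt3 had 7 counts over all libraries. The higher sums lay in Xcr1, at means of 1.22 CPM in PBS, 8.06 with LD-F1 EVs and 4.44 with LD-F1_b EVs. Xcr1 rose by 2.72 ± 0.28 on the log2 scale with LD-F1 EVs. Zbtb46 had lower means with EVs (0.966, 0.515 and 0.798 CPM in the same order) and did not pass. The part of these markers in the results below was not tested. The LD-F1 replicates differed along gene length: the log2 difference of replicate 2 from replicate 1 followed length with Spearman's rho = -0.48 across 9661 genes, while rho was -0.20 between the LD-F1_b replicates and -0.0080 between the PBS replicates (across genes, which are not independent). In bulk RNA, fewer cells that express a gene and less RNA per cell cannot be told apart.

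Promoter sequences are shown for the called gene with an entry that changed most with LD-F1 EVs in each subfamily (Maff, Junb and Fos). Jun, which did not pass in either EV group, is shown too. They are the 250 bases before an annotated start in RefSeq on GRCm38.p6, on the strand of the gene: chr15:79347270-79347519 for the second of 3 Maff starts, chr8:84978749-84978998 for Junb, chr12:85473640-85473889 for Fos and chr4:95052223-95052472 for Jun. Capitals mark matches to the motifs searched: TGANTCA (the AP-1 site), TGACGTCA (the cAMP response element), its core TGACG, the CArG box and the NF-kB site by name, all on both strands, and TATAAA on the gene's strand.

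Maff, second start: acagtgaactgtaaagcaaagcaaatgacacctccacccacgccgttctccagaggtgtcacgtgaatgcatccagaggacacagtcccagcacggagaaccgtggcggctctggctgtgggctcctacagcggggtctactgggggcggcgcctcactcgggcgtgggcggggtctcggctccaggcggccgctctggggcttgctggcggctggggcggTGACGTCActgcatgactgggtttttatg
Junb: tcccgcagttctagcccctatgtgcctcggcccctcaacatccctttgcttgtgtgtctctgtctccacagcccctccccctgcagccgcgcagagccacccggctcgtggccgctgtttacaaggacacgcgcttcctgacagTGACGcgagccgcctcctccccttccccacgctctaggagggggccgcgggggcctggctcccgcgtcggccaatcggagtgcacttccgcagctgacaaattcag
Fos: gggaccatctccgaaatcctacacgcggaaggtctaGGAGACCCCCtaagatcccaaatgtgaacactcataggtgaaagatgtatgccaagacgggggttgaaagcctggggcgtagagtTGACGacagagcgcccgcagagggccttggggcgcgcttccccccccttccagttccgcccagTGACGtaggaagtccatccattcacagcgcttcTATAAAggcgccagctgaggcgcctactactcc
Jun: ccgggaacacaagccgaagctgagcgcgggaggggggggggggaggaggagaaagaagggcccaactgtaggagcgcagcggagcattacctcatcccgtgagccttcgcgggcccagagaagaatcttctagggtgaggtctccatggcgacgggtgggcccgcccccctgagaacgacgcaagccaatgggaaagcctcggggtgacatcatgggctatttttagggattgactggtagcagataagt

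The Maff window shown holds a whole cAMP response element 29 to 22 bases before the start, and each such element also counts as a match to the core. It was not tested which Maff start these cells used. The windows of the Maff starts not shown lack the whole element. The first holds none of the motifs, and the third holds the core and an NF-kB site. The core stands 106 to 102 bases before the start of Junb, and in 2 places for Fos, at 129 to 125 and 66 to 62 bases, beside a TATA motif at 33 to 28. None of the motifs is in the Jun window as searched. That window holds TGACATCA, which differs from the cAMP response element in 1 letter and so was not marked. Near matches were not searched for in any window. Windows were found for 9 of the 10 genes (Fosl1 was not matched), and the core was in at least 1 window of Fos, Fosb, Junb, Maff, Mafg and Mafk; 17.8% of the 32851 windows of all genes hold it. The whole element is in 1.55% of all windows, a share per window, whereas Maff had 3 windows. TGANTCA, in 6.75% of all windows, and the CArG box, in 1.47%, were in no window of these genes, and the NF-kB site, in 3.90%, was in windows of Fos, Fosb, Fosl2 and Maff. Bases farther than 250 before a start were not searched, so a motif absent from a window may still lie upstream of it. The windows of the 9 genes were 47.6% to 68.8% G or C, against a median of 52.4% over all windows.

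In PBS, Junb was the most abundant of the 10 transcripts per length, at 117 ± 1.54 CPM per kb (SD). Fosl1, which encodes FRA1, followed at 50.3 ± 0.481, then Mafg at 43.1 ± 0.990 and Jun at 42.3 ± 1.15, whose libraries overlapped. Jund (22.5 ± 0.702), Mafk (12.2 ± 0.302), Fos (9.74 ± 0.0469), Fosl2, which encodes FRA2 (9.03 ± 0.575), and Maff (5.79 ± 0.0913) came next without overlap between neighbours. Fosb was close to the limit of detection, at 0.213 ± 0.0551 CPM per kb from 10 and 15 counts, and lay above only 3.14% of the genes tested, whereas Junb lay above 96.7%. In both EV groups the first 6 places of this order were the same; Maff moved from the ninth place to the seventh with LD-F1 EVs, where its libraries overlapped those of Fos, and to the eighth with LD-F1_b EVs.

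**Figure D1:**
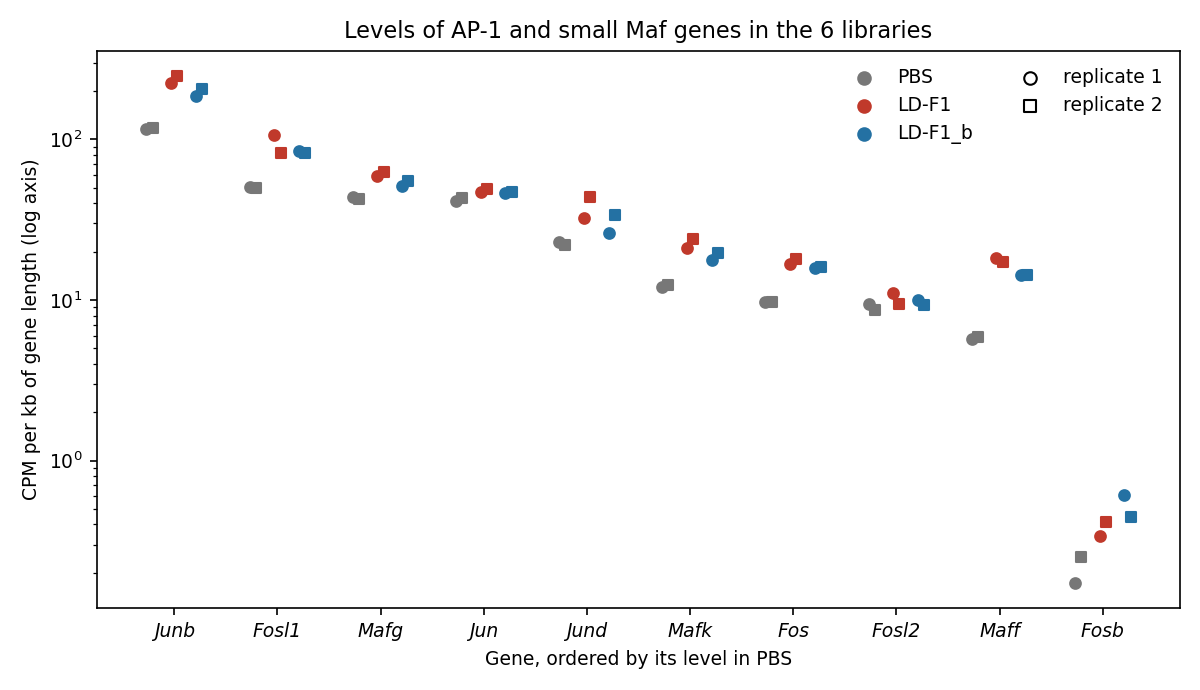
Levels of the 10 genes as CPM per kb of gene length on a log axis, 1 point per library (circle, replicate 1; square, replicate 2; colours, groups), with genes ordered by their mean in PBS. Every gene except Fosl2 lies above its PBS points in all 4 EV libraries, though the Jun points, like those of Fosl2, lie close together.

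With LD-F1 EVs, 7 of the 10 genes rose over PBS and 0 fell; 11.4% of all genes tested rose and 9.87% fell. The 7 were Maff, Junb, Fosl1, Mafk, Fos, Jund and Mafg, and Jun, Fosl2 and Fosb did not pass. With LD-F1_b EVs, 6 of 10 rose, the same genes without Jund, and 0 fell, where 6.44% of all genes rose and 4.54% fell. The median log2 fold change over the 10 genes was 0.82 for LD-F1 and 0.66 for LD-F1_b, and over all genes tested it was 0.01 for each. Both LD-F1 libraries lay above both PBS libraries for 10 of 10 genes (29.9% of all genes), and both LD-F1_b libraries did so for 9 of 10 (30.4% of all genes), Fosl2 being the exception. These comparisons share the PBS libraries. All libraries were taken at 6 h, so a rise that came and went before then could not be seen, also in genes that did not pass.

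Among the small Mafs, Maff changed most. This subunit is known to be inducible, in contrast to the more constant MafG. Maff stood at 12.1 and 12.4 CPM in PBS, at 38.6 and 36.3 with LD-F1 EVs and at 30.5 and 30.2 with LD-F1_b EVs. The 3 groups did not overlap, and replicates lay close to each other. The rise was 3.05-fold with LD-F1 EVs (log2 fold change 1.61 ± 0.12, adjusted p = 3.11e-06) and 1.30 ± 0.13 on the log2 scale with LD-F1_b EVs (adjusted p = 4.31e-05), which placed Maff above 98.4% of all genes tested in either comparison.

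Mafk, a second partner of the NRF factors, stood at 46.7 and 48.3 CPM in PBS, at 82.6 and 93.2 with LD-F1 EVs and at 68.8 and 76.3 with LD-F1_b EVs. It rose 1.85-fold with LD-F1 EVs (0.89 ± 0.11, adjusted p = 9.07e-05) and by 0.61 ± 0.11 on the log2 scale with LD-F1_b EVs (adjusted p = 0.00286). Every EV library lay above both PBS libraries. Without LD-F1_b replicate 2 or PBS replicate 1 the second call was lost (adjusted p = 0.0754 and 0.0655).

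Mafg, the most abundant small Maf gene, stood at 246 and 238 CPM in PBS, at 333 and 351 with LD-F1 EVs and at 288 and 307 with LD-F1_b EVs. The changes were smaller than those of Maff and Mafk, though again without overlap: 0.50 ± 0.08 with LD-F1 EVs (adjusted p = 0.001) and 0.30 ± 0.08 with LD-F1_b EVs (adjusted p = 0.0383). The LD-F1_b call was lost with a replicate block (adjusted p = 0.0504), and without LD-F1_b replicate 1 or 2 or PBS replicate 1 or 2 (adjusted p = 0.155, 0.312, 0.286 and 0.371). Mafg overlaps Sirt7 on the same strand over 124 bases of the deposited positions, and the assignment of reads in this stretch was not tested. Sirt7 had 583 to 763 counts in a library.

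In the Jun subfamily the rise was in Junb and, with LD-F1 EVs, in Jund. JunB is known as a weaker activator than c-Jun and as a partner of BATF and Fos proteins in immune cells. Junb stood at 212 and 216 CPM in PBS, at 410 and 456 with LD-F1 EVs and at 341 and 381 with LD-F1_b EVs, with no overlap between any 2 groups. It rose 2.02-fold with LD-F1 EVs (1.01 ± 0.09, adjusted p = 1.02e-05) and by 0.75 ± 0.09 on the log2 scale with LD-F1_b EVs (adjusted p = 0.000261).

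Jun, which encodes c-Jun, stood at 132 and 138 CPM in PBS, at 151 and 158 with LD-F1 EVs and at 147 and 149 with LD-F1_b EVs. The EV libraries were all above the PBS libraries, by little. The log2 difference was 0.19 ± 0.08 for LD-F1 (95% interval 0.01 to 0.37, adjusted p = 0.132) and 0.13 ± 0.08 for LD-F1_b (95% interval -0.05 to 0.31, adjusted p = 0.373), so increases above 0.37 and 0.31 on the log2 scale lie outside the intervals. The LD-F1 difference passed without LD-F1 replicate 1 (adjusted p = 0.0219). The antisense gene Junos overlaps Jun over 689 bases and had 17 to 35 counts in a library, against 2012 to 2216 for Jun; no source used here gives the strand setting of the counting.

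Jund, usually the most steadily expressed Jun gene, stood at 66.3 and 63.4 CPM in PBS. With LD-F1 EVs the replicates were far apart, at 93.7 and 125 CPM, and with LD-F1_b EVs likewise, at 75.5 and 97.8, replicate 2 being the higher in both. Jund rose with LD-F1 EVs (0.76 ± 0.15, adjusted p = 0.00324), by 0.53 without replicate 2 and by 0.95 without replicate 1. The LD-F1_b value was 0.42 ± 0.15 (adjusted p = 0.0992), and it passed without LD-F1 replicate 1 or 2, without the filter on low counts and in a fit of the 4 libraries compared (adjusted p = 0.00677, 0.00411, 0.00257 and 0.00569). It was 0.22 without LD-F1_b replicate 2 (adjusted p = 0.59) and 0.59 without LD-F1_b replicate 1 (adjusted p = 0.114). Jund has a length of 2877 bases, longer than 40.6% of the genes tested.

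In the Fos subfamily, Fosl1 and Fos rose. FRA1 lacks the transactivation domain of c-Fos. Fosl1 stood at 86.5 and 85.4 CPM in PBS, at 181 and 140 with LD-F1 EVs and at 144 and 141 with LD-F1_b EVs. All EV libraries lay above PBS, but the LD-F1 replicates enclosed those of LD-F1_b. The rise was 1.87-fold with LD-F1 EVs (0.90 ± 0.11, adjusted p = 0.000144) and 0.73 ± 0.11 on the log2 scale with LD-F1_b EVs (adjusted p = 0.00144). Fosl1 is the shortest of the 10 genes, at 1707 bases, and was lower in LD-F1 replicate 2 by 0.37 on the log2 scale, whereas the trend with length across genes placed shorter genes higher in that library.

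Fos, the classical immediate early gene that encodes c-Fos, was the seventh of the 10 genes by level in PBS. It stood at 22.8 and 23.0 CPM in PBS, at 39.1 and 42.2 with LD-F1 EVs and at 37.0 and 37.9 with LD-F1_b EVs. No groups overlapped. Fos rose 1.77-fold with LD-F1 EVs (0.83 ± 0.11, adjusted p = 0.000259) and by 0.71 ± 0.11 on the log2 scale with LD-F1_b EVs (adjusted p = 0.00174).

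Fosl2 stood at 91.5 and 83.7 CPM in PBS, at 107 and 91.6 with LD-F1 EVs and at 97.1 and 89.8 with LD-F1_b EVs, the highest PBS library lying above the lowest LD-F1_b library. Its log2 differences of 0.18 ± 0.10 (adjusted p = 0.262) and 0.09 ± 0.10 (adjusted p = 0.64) did not pass. It is the longest of the 10 genes (9699 bases). With an offset for gene length, or without LD-F1 replicate 2, the LD-F1 difference passed (0.31 and 0.28, adjusted p = 0.0196 and 0.0247). Without LD-F1 replicate 1 it was 0.06 (adjusted p = 0.634), and without PBS replicate 2 it was 0.11 (adjusted p = 0.732). Fosb had 10 and 15 counts in the PBS libraries, 17 and 22 with LD-F1 EVs and 33 and 24 with LD-F1_b EVs. The values were 0.82 ± 0.50 (adjusted p = 0.28) and 1.30 ± 0.48 (adjusted p = 0.117), and at this depth intervals from -0.27 to 1.91 and from 0.24 to 2.35 on the log2 scale remained.

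**Figure D2:**
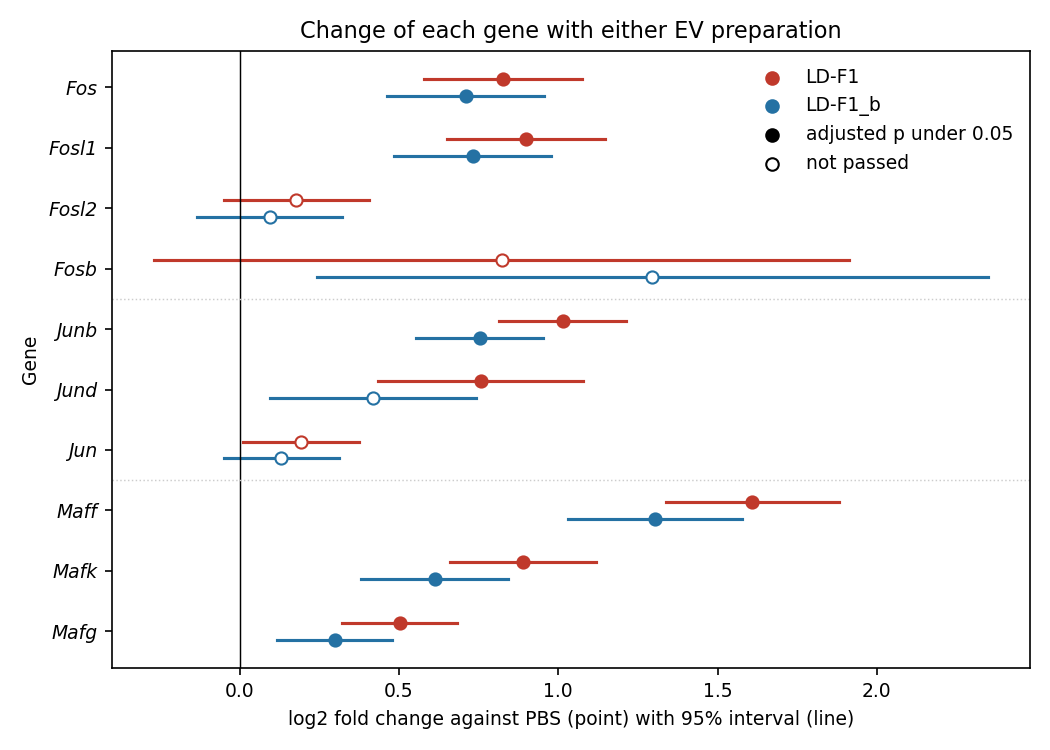
Log2 fold change of each gene against PBS (points) with its 95% interval (lines) for LD-F1 and LD-F1_b EVs, grouped as Fos, Jun and small Maf genes; filled points passed at an adjusted p under 0.05. Maff lies farthest to the right among the filled points at 1.61 and 1.30, and Jun and Fosl2 lie nearest to 0.

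The unequal changes shifted the make-up of the family. Summed over the 10 genes, levels were 311 and 312 CPM per kb in PBS, 535 and 554 with LD-F1 EVs and 452 and 485 with LD-F1_b EVs, or 1.75 and 1.5 times the PBS mean. The 3 subfamilies kept similar shares of this sum, with Jun genes at 56.5% to 61.5%, Fos genes at 19.8% to 25% and small Mafs at 18.3% to 19.7% across the 6 libraries. Within the Jun genes, Junb made up 64.1% and 64.3% in PBS, 73.6% and 72.7% with LD-F1 EVs and 72.0% in each LD-F1_b library. The share of Jun itself was 23.1% and 23.6% in PBS, 15.6% and 14.5% with LD-F1 EVs and 17.9% and 16.2% with LD-F1_b EVs. Per length, there were 2.72 and 2.78 Junb transcripts for each Jun transcript in PBS, 4.71 and 5.01 with LD-F1 EVs and 4.03 and 4.44 with LD-F1_b EVs. Among small Mafs the share of Maff was 9.32% and 9.66% in PBS, 18.4% and 16.5% with LD-F1 EVs and 17.3% and 16.1% with LD-F1_b EVs. Within the Fos genes, Fosl1 held 72.4% and 72.8% in PBS and 74.7% to 79.1% in the EV libraries, and Fosl2 13.5% and 12.6% in PBS and 8.21% to 9.02% in the EV libraries. These shares are descriptions of 6 libraries, and were not tested.

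**Figure D3:**
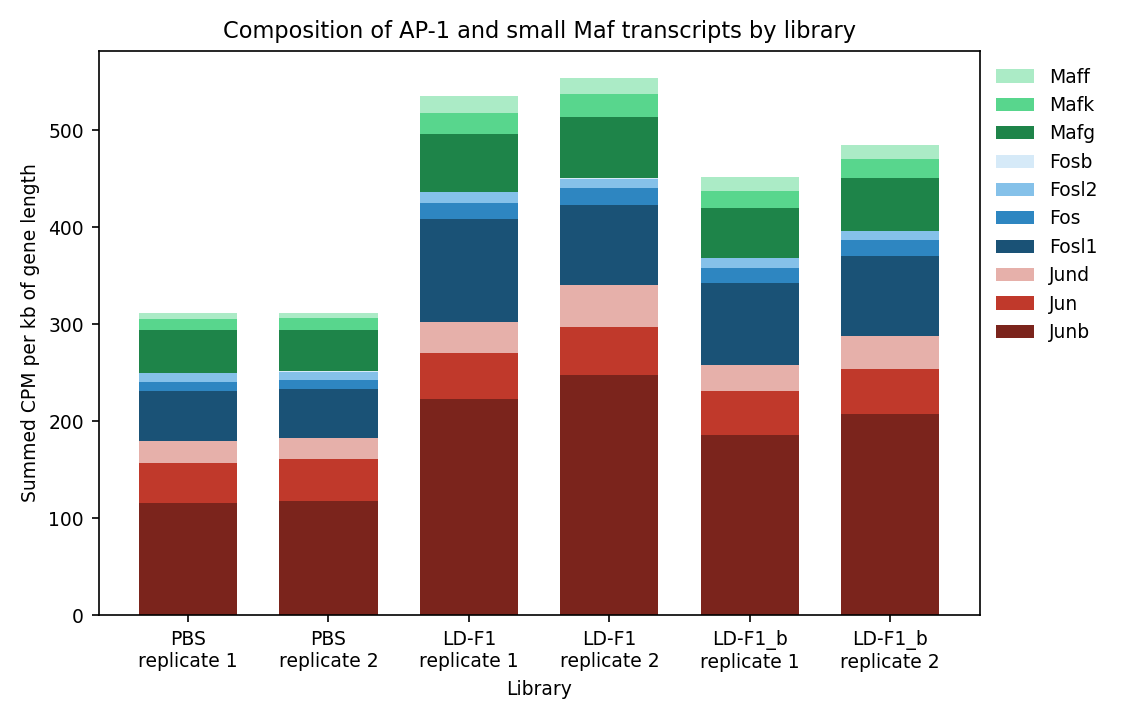
Summed CPM per kb of gene length for the 10 genes in each library, stacked by gene (reds, Jun genes; blues, Fos genes; greens, small Mafs). The bars reach 311 and 312 in PBS and 452 to 554 in the EV libraries, and the Junb segment widens more than the Jun segment.

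The EV preparations were then compared directly. With LD-F1_b against LD-F1 EVs, 0 of the 10 genes passed in edgeR and 0 in DESeq2, while 0.408% of all genes tested were called lower and 0.0157% higher. At an unadjusted p under 0.05, edgeR gave 5 of the 10 genes and 8.78% of all genes tested, and DESeq2 gave 4 and 5.93%. The 5 in edgeR had lower values with LD-F1_b: Junb (-0.26 ± 0.09, adjusted p = 0.379), Mafk (-0.28 ± 0.10, adjusted p = 0.447), Maff (-0.30 ± 0.12, adjusted p = 0.469), Mafg (-0.20 ± 0.08, adjusted p = 0.504) and Jund (-0.34 ± 0.15, adjusted p = 0.536). Estimates were below 0 for 9 genes and above 0 for Fosb, with a median of -0.19 over the 10 genes and 0.00 over all genes. Both LD-F1_b libraries lay below both LD-F1 libraries for 6 genes (Fos, Jun, Junb, Maff, Mafg and Mafk), against 17% of all genes. Intervals of the difference ran from -0.36 to 0.12 for Fos, from -0.24 to 0.12 for Jun and from -0.56 to -0.05 for Maff.

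This count rested on the LD-F1 libraries. Without LD-F1 replicate 1, 4 genes were lower with LD-F1_b EVs: Junb (-0.34, adjusted p = 0.00557), Jund (-0.53, adjusted p = 0.0103), Mafk (-0.36, adjusted p = 0.0203) and Mafg (-0.24, adjusted p = 0.0288). In that fit 4.13% of all genes were lower. Without LD-F1 replicate 2, only Fosl1 was lower (-0.34, adjusted p = 0.0116), with 2.01% of all genes. Each of these fits leaves LD-F1 with 1 library, assumed to vary like the other groups.

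**Figure D4:**
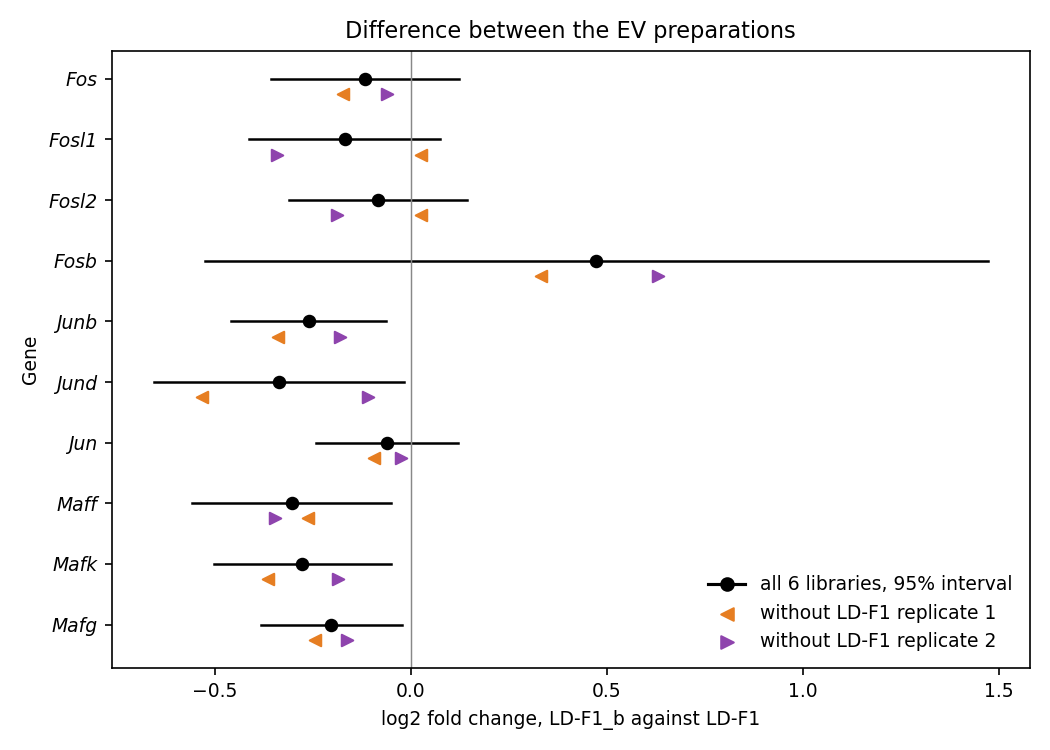
Log2 fold change of LD-F1_b against LD-F1 for each gene with all 6 libraries (black, with 95% interval), without LD-F1 replicate 1 (orange) and without LD-F1 replicate 2 (purple). Fosl1 and Fosl2 change sign without replicate 1, and Jund moves from -0.53 to -0.11 between the omissions.

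Of the other bZIP proteins that pair with Fos and Jun, 2 of 4 tested genes rose with each EV preparation and 0 fell (7 were listed and 6 matched). Over all genes tested, 11.4% rose with LD-F1 EVs and 6.44% with LD-F1_b EVs. Jdp2, a repressive dimer partner of Jun, stood at 47.2 and 46.4 CPM in PBS, 128 and 138 with LD-F1 EVs and 97.3 and 96.8 with LD-F1_b EVs. It rose by 1.51 ± 0.09 (adjusted p = 5.6e-07) and by 1.05 ± 0.09 (adjusted p = 2.19e-05), and the value for LD-F1_b against LD-F1 was -0.45 ± 0.09 (adjusted p = 0.0549). Atf3, a stress-induced factor known to restrain cytokine genes, rose by 1.08 ± 0.09 (adjusted p = 3.76e-06) and by 0.76 ± 0.09 (adjusted p = 0.00016). Jdp2 lies next to Fos on chromosome 12 in the table, starting 134 kb after the end of Fos (88741461 to 88744847), followed by Batf, which had 0 counts in all 6 libraries.

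Among genes for the CNC factors that pair with the small Mafs, Nfe2l1, which encodes NRF1, rose by 0.70 ± 0.08 on the log2 scale with LD-F1 EVs and by 0.55 ± 0.08 with LD-F1_b EVs (adjusted p = 7.92e-05 and 0.00106). Nfe2l2, which encodes NRF2, had 0.12 ± 0.08 in each EV group (adjusted p = 0.334 and 0.422). Bach1, a repressor at the same elements, had 0.05 ± 0.13 and -0.16 ± 0.13 (adjusted p = 0.834 and 0.491). Without PBS replicate 1 the LD-F1_b call of Nfe2l1 was lost.

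The counts for genes that act upstream stand beside shares over all genes of 11.4% higher and 9.87% lower with LD-F1 EVs, and of 6.44% and 4.54% with LD-F1_b EVs. Of 17 tested MAP kinases and their activators (19 listed), 4 rose and 2 fell with LD-F1 EVs, and 2 rose and 1 fell with LD-F1_b EVs (medians 0.10 and 0.11). Those with the largest values in LD-F1 were Map2k6 (0.89), Map3k8, which encodes TPL2 (0.88), Map3k1 (-0.49) and Map2k1 (0.39). The counts for LD-F1 were 0 and 0 without PBS replicate 1. With LD-F1_b EVs they were 0 and 0 without PBS replicate 1 or 2 or LD-F1_b replicate 2, and DESeq2 called 0 higher and 1 lower. Of 8 genes listed as SRF, TCF and CREB factors or their coactivators, 0 rose and 2 fell with LD-F1 EVs. These were the SRF coactivator genes Mrtfa (listed as Mkl1), by 0.96 ± 0.12 on the log2 scale, and Mrtfb (Mkl2), by 0.68 ± 0.19. Srf, Elk1, Elk3, Elk4, Creb1 and Crtc2 did not pass in either EV group. Whether any of the 8 acted on Fos in these cells was not tested. With LD-F1_b EVs Mrtfa fell by 0.74 ± 0.12. Leaving out 1 library gave 1 to 2 lower genes for LD-F1 and 0 to 2 for LD-F1_b, and 0 to 2 higher genes in each. Of 6 tested regulators of Jun and Fos protein turnover or activity, 2 rose with LD-F1 EVs, Trib1 (0.95) and Cop1 (listed as Rfwd2; 0.34), and Trib1 rose with LD-F1_b EVs (0.91); that count for LD-F1 was 4 without LD-F1 replicate 1 and 1 without either PBS replicate.

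The next 3 lists stand beside the same shares over all genes, 11.4% higher with LD-F1 EVs and 6.44% with LD-F1_b EVs. Other immediate early genes rose beside the AP-1 genes, 9 of 13 with LD-F1 EVs and 7 of 13 with LD-F1_b EVs, with 0 lower (medians 0.91 and 0.92). Over the alternatives other than leaving out 1 library these counts were 8 to 9 and 7 to 8. Both were smaller without either PBS replicate. Myc rose most (3.24 and 2.62), followed for LD-F1 by Btg2 (1.94), Ier3 (1.93) and Egr2 (1.86), while the orphan receptor genes Nr4a1, Nr4a2 and Nr4a3 did not pass. Of 14 tested genes that textbooks give as AP-1 targets, 12 rose in each EV group, with 1 and 0 lower (medians 1.30 and 1.06). The largest values for LD-F1 were those of Il1b (5.30 ± 0.50), Ptgs2 (5.15 ± 0.26), Mmp13 and Mmp9 (1.90 ± 0.10). Mmp13 totalled 89 counts over the LD-F1 libraries and 3 over the PBS libraries, a ratio of 33.8 (95% interval 11.2 to 167, counting error only). Il1b was also near 0 in PBS, with 217 and 6 counts in the same order, a ratio of 41.2 (18.6 to 113). The 1 lower gene for LD-F1 was Ccnd1 (-0.29), and it was not called without any one of the LD-F1_b or PBS libraries; without PBS replicate 1 the 12 for LD-F1_b became 8. Of 10 tested antioxidant genes that small Maf heterodimers are known to bind, 10 rose with LD-F1 EVs and 7 with LD-F1_b EVs (medians 0.77 and 0.53), led for LD-F1 by Slc7a11 (1.61), Hmox1 (1.37), Prdx1 (1.02) and Srxn1 (1.01). Over the alternatives other than leaving out 1 library, the antioxidant counts were 8 to 10 and 6 to 10, and both were smaller without PBS replicate 2. Many of these genes are also targets of NF-kB, NRF2 and other factors, and their levels do not show which factor was bound.

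**Figure D5:**
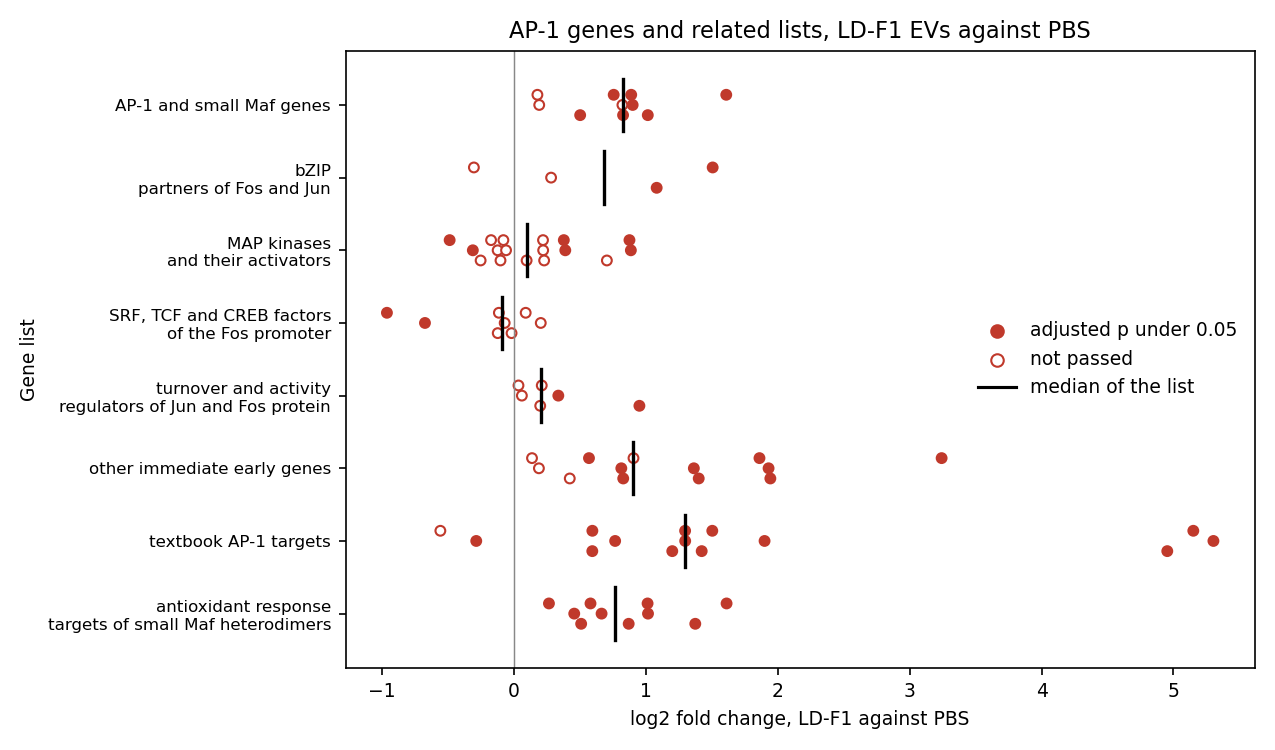
Log2 fold change of LD-F1 against PBS for the 10 genes and for the tested genes of 7 related lists, 1 point per gene (filled, adjusted p under 0.05), with the median of each list as a black line. Medians lie at 0.82 for the 10 genes, 1.30 for the textbook targets and 0.10 for the MAP kinases.

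Between the EV preparations, Ier3 was the 1 of 13 tested immediate early genes lower with LD-F1_b EVs (-0.53, adjusted p = 0.0335). The same held for Ptgs2 of 14 textbook targets (-1.61, adjusted p = 0.00614) and Hmox1 of 10 antioxidant genes (-0.56, adjusted p = 0.00966). Of all genes tested, 0.408% were lower. Over the alternatives other than leaving out 1 library, the 3 counts ran in the same order from 0 to 4, 1 to 2 and 0 to 4. All 3 were larger without either LD-F1 replicate, where the share over all genes was larger too. Ier3, Ptgs2 and Hmox1 were not called without either LD-F1_b replicate, nor was Ier3 without either PBS replicate.

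For the 3 called genes with the widest range of group means, the genes with the most similar profile were taken from 9473 candidates, by the root mean square difference of log2 CPM centred over the 6 libraries. For Maff they were Gpr84, a receptor for medium-chain fatty acids (0.0553), the adaptor gene Stap1 (0.0567) and the receptor gene Calcrl (0.0648). For Junb they were Afp (0.0344), Agpat4, an enzyme of phospholipid synthesis (0.0465), and the aldo-keto reductase gene Akr1b8 (0.0506). For Fosl1 they were the amino acid transporter gene Slc7a5 (0.0392), Ralgapa2 (0.0563) and Rapgef2 (0.0621). Gpr84, at 44.9 CPM in PBS, 141 with LD-F1 EVs and 115 with LD-F1_b EVs, had log2 fold changes of 1.65 ± 0.10 and 1.36 ± 0.10 beside 1.61 and 1.30 for Maff.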

How the data were processed

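Gene counts of 6 poly(A) RNA-seq libraries were analysed, 2 per group. The authors deposited 1 table of whole-number read counts per gene with the gene lengths in bases; per the submitters' processing notes the tools named are fastp, featureCounts 1.5.0-p3, StringTie 1.3.3b and HISAT2 2.0.5. Those notes name build GRCm39, whereas the identifiers in the table carry the prefix of C57BL/6NJ gene models. Positions other than promoters are as deposited. No source used here gives the strand setting. Per-sample columns left unmatched numbered 0.

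Counts were tested with edgeR 4.0.16 in R 4.3.3 (filterByExpr, TMM, glmQLFit with robust estimation, glmQLFTest), with all 6 libraries in 1 fit, a mean per group and Benjamini-Hochberg adjustment over 12740 genes. The design was checked on simulated data. Alternatives were RLE factors, DESeq2 1.42.0, no filter, a fit of the 4 libraries compared, no robust estimation, a replicate block, an offset from a loess on gene length, and leaving out each library. Log2 CPM used a prior count of 2. Per the rule for named genes, every member is named, up to 4 called genes of a related list with the largest absolute log2 fold change, and 3 similar genes (mean of at least 5 CPM) for each of the 3 called members with the widest range; others named were chosen after their values were seen. The members and lists were chosen with earlier results of these data known. Symbols missing from the table were matched through RefSeq synonyms. Intervals of count ratios cover counting error only. Part of the list of small Maf partners is not reported here.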

Additional observations from a re-analysis of the deposited data

How the results depend on the processing

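Over the 7 alternatives other than leaving out 1 library, 7 to 8 of the 10 genes were called for LD-F1 against PBS, 5 to 7 for LD-F1_b against PBS and 0 for LD-F1_b against LD-F1. Leaving out 1 library at a time gave 7 to 8, 4 to 7 and 0 to 4. Every estimate against PBS stayed above 0 for each of the 10 genes under all 13 alternatives. Against LD-F1, Fosl1 and Fosl2 changed sign without LD-F1 replicate 1 (0.025 and 0.026), and leaving out 1 library at a time gave -0.34 to 0.025 and -0.19 to 0.026. The calls of Maff, Junb, Fosl1 and Fos against PBS held throughout. With the replicate block, 7, 5 and 0 genes were called; the call lost was Mafg for LD-F1_b. The labels do not say that a replicate number marks a shared animal, batch or day, and the differences between replicates correlated by -0.04 to 0.13 between groups, so no pairing was assumed. For some of the 10 genes the log2 difference of replicate 2 from replicate 1 was alike with LD-F1 and LD-F1_b EVs. It was 0.42 and 0.37 for Jund and 0.15 and 0.16 for Junb. For others it was not, with -0.37 and -0.04 for Fosl1 and 0.27 and -0.44 for Fosb. Counts for the related lists changed by over 1.5 times in 102 of 624 values. Over all genes, calls for LD-F1_b against PBS were 820 higher and 578 lower, and 1578 and 1520 in the fit of 4 libraries. For LD-F1_b against LD-F1 the 2 and 52 became 19 and 86 with DESeq2, 48 and 137 without the filter, 0 and 33 in the fit of 4 libraries, and 16 and 91 with the length offset. Leaving out 1 library gave 689 to 2289 higher and 524 to 2208 lower for LD-F1 against PBS; 304 to 1629 higher and 93 to 1536 lower for LD-F1_b against PBS; 0 to 602 higher and 0 to 550 lower for LD-F1_b against LD-F1, against 1449 and 1258, 820 and 578, and 2 and 52 with all libraries. Depth limits Fosb, at 10 to 33 counts a library.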
